A study of Homo sapiens with 12 samples.

Results

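Classic mirtrons are microRNAs (miRNAs) cut out of very short introns by the splicing machinery. The set described here holds 10 mature human names, hsa-miR-877-3p, hsa-miR-877-5p, hsa-miR-1224-5p, hsa-miR-1225-5p, hsa-miR-1226-3p, hsa-miR-1229-3p, hsa-miR-1234-3p, hsa-miR-1236-3p, hsa-miR-1237-3p and hsa-miR-1237-5p, written below without the species prefix. The rule that picks them uses their names and no measured value, although the set was proposed with earlier results of these data known. They are 10 of 2656 mature miRNA names in the deposited tables, and each was listed in all 12 of them. The study sequenced small RNA of AC16, an established human line made by fusing adult ventricular cardiomyocytes with transformed fibroblasts, and of exosomes isolated from it. Its question was which exosomal miRNAs respond when cardiomyocytes become hypertrophic. There were 4 groups of 3 libraries: cells and exosomes labelled Con, and cells and exosomes labelled Ang, whose tables carry AngII in their headers. The sources used here spell out neither name and give no dose or duration. They do not say whether the libraries of a group came from separate cultures, and the p-values below reflect library-to-library spread, which may be technical.

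In the usual pathway the nuclease Drosha trims a long primary transcript to a hairpin, which Dicer then cuts into a 5p and a 3p arm. A mirtron skips Drosha: the spliced intron lariat is opened by the debranching enzyme and folds into a hairpin that Dicer can cut directly. The ends of such a hairpin are therefore the splice sites of the intron, GU at the 5′ end and AG at the 3′ end. This is the route in general, and whether each member here was made by it was not tested. An arm enters an Argonaute protein and finds target mRNAs mainly through its seed, bases 2 to 8 of the mature sequence.

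Sequences were taken from RefSeq (GRCh38.p14), which matched 9 of the 10 names; miR-1234-3p was not matched. They are shown to let the arms be compared with the splice-site ends, and the capitals mark the seed.
miR-877-3p: uCCUCUUCucccuccucccag
miR-1226-3p: uCACCAGCccuguguucccuag
miR-1229-3p: cUCUCACCacugcccucccacag
miR-1236-3p: cCUCUUCCccuugucucuccag
miR-1237-3p: uCCUUCUGcuccgucccccag
miR-877-5p: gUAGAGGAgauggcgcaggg
miR-1224-5p: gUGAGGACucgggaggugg
miR-1225-5p: gUGGGUACggcccagugggggg
miR-1237-5p: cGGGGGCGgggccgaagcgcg
No full seed was shared between any of the 9, so the set has no common family of identical seeds. Among the other listed names with a RefSeq sequence, only miR-4488 carried one of these seeds, that of miR-1237-5p. The seeds of miR-877-3p (CCUCUUC) and miR-1236-3p (CUCUUCC) share CUCUUC in a shifted position.

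All matched arms but miR-1237-5p carried an end of their intron. Mirtrons are defined by such ends, so the shares below describe the set and are not a test of it. All 5 matched 3p members ended in AG, against 22.7% of the 821 listed 3p names with a sequence, and all 5 lay at the last base of their hairpin. Of the 4 matched 5p members, 3 started with GU at the first base of the hairpin, against 5.57% of 808 listed 5p names that start with GU. The 3p members were rich in C (40.9 to 57.1% of their bases) and the 5p members rich in G (55 to 61.9%). The study's stated interest was in shared sequence elements, so the short motifs GGAG and CCCU, which have been linked to exosomal sorting of miRNAs, were searched on the sense strand of the mature RNA. GGAG was found in 2 of the 9 members, miR-877-5p and miR-1224-5p, and in 15.7% of 2367 listed names. CCCU was found in 4 of the 9, miR-877-3p, miR-1226-3p, miR-1229-3p and miR-1236-3p, and in 11.9% of listed names. miR-1225-5p and both miR-1237 arms carried neither motif. The listed names include both arms, while every member with CCCU is a 3p arm. The part of these motifs in exosome levels was not tested.

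All 7 matched hairpins coincided base for base with a whole annotated intron of a protein-coding gene (GENCODE release 29, GRCh38), as did 23 of 1562 hairpins in the sequence table, or 1.47%. Mirtrons are recognised by this trait, so it too is a description of the set. The miR-877 hairpin is an intron of ABCF1, a factor in translation initiation, at chr6:30584332-30584417 on the plus strand. The miR-1224 hairpin is an intron of VWA5B2 (chr3:184241405-184241489, plus), and the miR-1225 hairpin one of PKD1, the polycystin-1 gene mutated in polycystic kidney disease (chr16:2090195-2090284, minus). The miR-1226 hairpin is an intron of the RNA helicase gene DHX30 (chr3:47849555-47849629, plus). The miR-1229 hairpin lies in the glycosyltransferase gene MGAT4B (chr5:179798278-179798346, minus), and the miR-1236 hairpin in NELFE, a subunit of the negative elongation factor (chr6:31956839-31956940, minus). The miR-1237 hairpin is an intron of RPS6KA4, a stress- and mitogen-activated kinase (chr11:64368602-64368703, plus). These introns were 69 to 102 bases long.

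The hairpins that gave both of their arms to the set are shown with the mature arms in capitals, because the arms sit differently in them.
MIR877: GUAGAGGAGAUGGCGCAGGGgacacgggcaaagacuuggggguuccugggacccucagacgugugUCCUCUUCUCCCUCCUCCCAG
MIR1237: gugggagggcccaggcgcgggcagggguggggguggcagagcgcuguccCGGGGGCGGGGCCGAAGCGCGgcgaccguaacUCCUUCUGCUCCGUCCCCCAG
In miR-877 the arms occupied the first 20 and the last 21 bases of the intron. In miR-1237 the 3p arm ended at base 102, the last of the intron, but the annotated 5p arm ran from base 50 to base 70, inside the intron rather than at its 5′ end. miR-1237-5p also had the highest G and C content of the set, 90.5%, which 13 of the 2367 matched names, itself included, reached or passed. The median of those names was 52.2%.

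The tables hold raw counts of unique molecular identifiers (UMIs), which count molecules rather than amplified reads. A cell library held 413513 to 528844 UMIs and an exosome library 697049 to 1029883, so that 3 counts, the limit that a count of 0 allows, came to between 2.91 and 7.25 CPM, the usual scaling of a count by its library total. All 7 muscle miRNAs checked, among them the cardiac miR-208a-3p and miR-499a-5p, had counts in cells, with a summed level of 285 to 376 CPM, and at most 90.6 CPM in exosomes. Most of the cell sum was miR-208a-3p, with means of 221 CPM in Con and 162 in Ang. All names but miR-208a-3p and miR-208b-3p had at most 15 counts in any cell library. miR-1-3p had 3 to 9 counts in cells Con and 2 to 3 in cells Ang, close to the limit of 3. The cardiac miR-499a-5p had 1 count in all in the exosome libraries of each label. Markers of blood, liver and endothelium, 10 of 10 with counts in every group, summed to 690 to 1908 CPM in exosomes Con and 435 to 895 in exosomes Ang. They summed to 2809 to 2979 CPM in cells Con and to 2573, 2697 and 11741 in the cells Ang libraries, where replicate 2 had the last value. Most of the cells Con sum was miR-223-3p, with a mean of 1999 CPM. In cells Ang replicate 2 the highest of these names were miR-126-3p (4007 CPM), miR-223-3p (3282) and miR-142-3p (2041). miR-144-3p had only 1 count in all in each exosome group. Exosomes Con replicate 1 stood apart over all names. Its chi-square divided by the degrees of freedom was 6.57 and 10.6 against the other Con replicates, which had 1.91 between them. Cells Ang replicate 2 had at least 3.997 against its fellows, which had 1.99 between them. The part of these differences in the results on mirtrons was not tested, beyond leaving out each library in turn.

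miR-1237-5p led the set in every group and reached the top ranks of exosomes. Its level was 894, 886 and 875 CPM in the cells Con libraries and 1229.3, 1166 and 1026 CPM in cells Ang. In exosomes it stood at 17033, 16445 and 16191 CPM in Con and 12950, 13458 and 13816 CPM in Ang. The exosome libraries thus lay far above all cell libraries, and by mean CPM the name ranked 223 of 2656 in cells Con but 12 in exosomes Con and 10 in exosomes Ang. The 10 members together held 0.205 to 0.267% of UMIs in cell libraries and 1.46 to 1.87% in exosome libraries, in exosomes mostly under this name.

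miR-877-3p, the second most abundant member over all libraries, stood at 340, 362 and 304 CPM in cells Con and 383, 339 and 294 in cells Ang. It stood at 521, 624 and 617.7 CPM in exosomes Con and 634, 729 and 750 in exosomes Ang. Its level overlapped between Con and Ang in cells, and did not overlap between cells and exosomes. miR-1225-5p was the second member in cells, at 351 to 546 CPM in Con and 409 to 463 in Ang, and one of the lowest in exosomes, at 24.8 to 27.2 CPM in Con and 18.8 to 25.4 in Ang. miR-1226-3p was the lowest in every group, with 12 to 14 counts per library in cells Con, 6 to 17 in cells Ang, 4 to 7 in exosomes Con and 1 to 7 in exosomes Ang, close to the limit of 3 counts. The order of the mean levels in cells Con was miR-1237-5p, miR-1225-5p, miR-877-3p, miR-1234-3p, miR-1236-3p, miR-1229-3p, miR-1224-5p, miR-877-5p, miR-1237-3p and miR-1226-3p. Of these, miR-877-5p (39.7 to 49.5 CPM) and miR-1237-3p (34.9 to 45.4 CPM) overlapped, as did miR-1225-5p with miR-877-3p, and miR-1229-3p (61.3 to 96.9) with miR-1224-5p (49.5 to 81.3), whose lowest library equalled the highest of miR-877-5p. In exosomes Con the order was miR-1237-5p, miR-877-3p, miR-1236-3p, miR-1237-3p, miR-1229-3p, miR-1234-3p, miR-1224-5p, miR-877-5p, miR-1225-5p and miR-1226-3p, where miR-1229-3p and miR-1234-3p overlapped. Different names can be captured with different efficiency, so the ranks and orders of names describe captured counts and not amounts in the sample. The same limit holds for the ratios and shares of arms below.

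**Figure D1:**
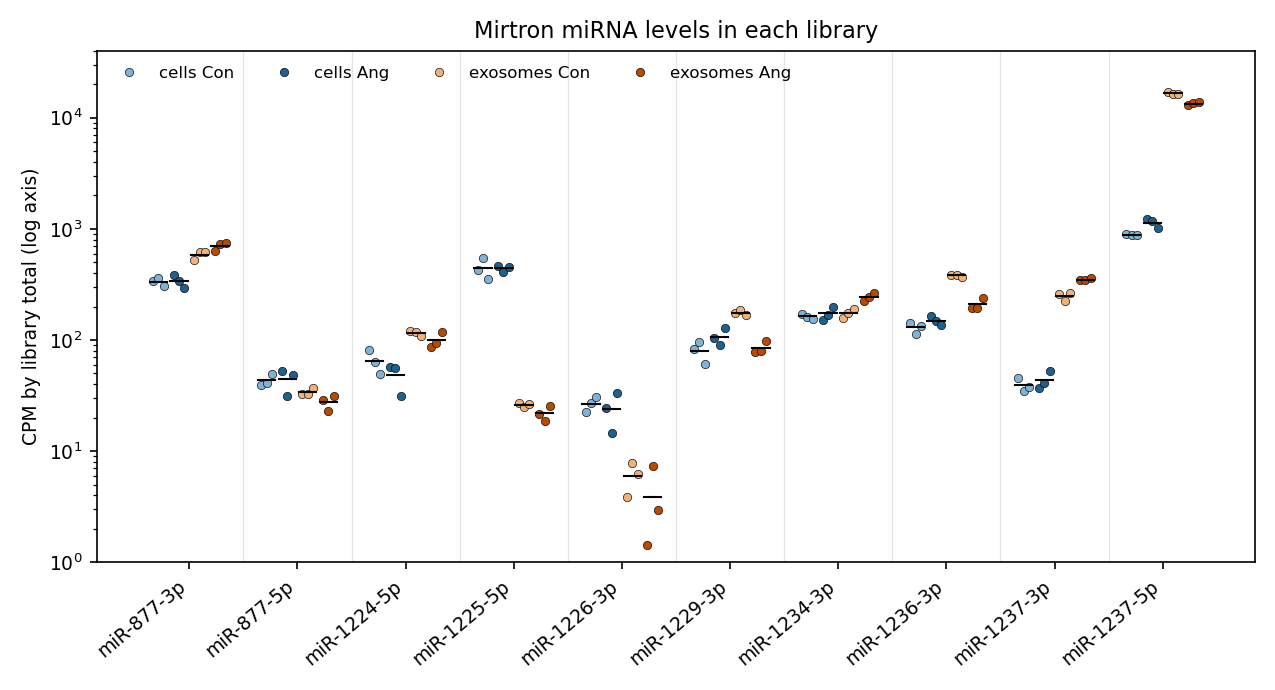
CPM by library total of each mirtron miRNA, on a log axis, with Con and Ang of each compartment in their own colours; each point is a library and each bar the mean of 3. miR-1237-5p sits above all others, between 875 and 1229.3 CPM in cells and between 12950 and 17033 in exosomes. miR-1225-5p, miR-1226-3p and miR-877-5p sit lower in exosomes than in cells of the same label, as does the mean of miR-1229-3p in Ang.

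Exosomes were compared with cells within each label. In Con, 8 of the 10 members were higher in exosomes, miR-1225-5p was lower and miR-1226-3p did not pass the test (edgeR quasi-likelihood test with TMM scaling, adjusted p under 0.05 over all tested names). The background was high: of 1710 names tested, 83.3% passed, 39.2% were higher in exosomes and 44.2% lower. The median log2 difference was 2.32 over the members and -0.27 over all tested names. In Ang, 8 of 9 tested members were again higher and miR-1225-5p lower, where 83.3% of 1627 tested names passed, 38.2% higher and 45.1% lower, and the medians were 2.38 and -0.31. The Con and the Ang comparison share no libraries, but both share libraries with the comparisons of Ang against Con below. Each compartment had its own extraction kit, so compartment and kit cannot be told apart. Fewer vesicles or cells and less RNA in each cannot be told apart either. The scale matters for every exosome to cell difference. With library totals in place of TMM the median of all tested names moved by -1.51 on the log2 scale in Con and by -1.88 in Ang, and 6 members were higher and 2 lower under each label. Over all names, that scale gave 349 higher and 1151 lower in Con, in place of 670 and 755, and 296 and 1173 in Ang, in place of 621 and 734. Totals taken without the abundant miR-552-3p and miR-3972 gave 400 and 1033 in Con and 388 and 997 in Ang, with 7 members higher and 2 lower in Con and 6 and 1 in Ang.

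With TMM scaling the miR-1237 arms had the largest differences of the set; as ratios of mean CPM, miR-1225-5p had the largest in Ang (log2 -4.33) and was second to miR-1237-5p in Con (log2 -4.07). miR-1237-5p was 53.4-fold higher in exosomes Con than in cells Con (log2 5.74, SE 0.060, adjusted p = 1.35e-13, edgeR) and 43.6-fold higher under Ang (log2 5.45, SE 0.103), or 18.7-fold and 11.8-fold as ratios of mean CPM by library totals. miR-1237-3p went from 45.4, 34.9 and 37.7 CPM in cells Con to 259, 225 and 267 in exosomes Con, and from 36.7, 41.1 and 52.6 to 344, 347 and 359 under Ang. Its log2 differences were 4.17 (SE 0.148) and 4.88 (SE 0.158), or ratios of mean CPM of 6.36 and 8.05. All 6 exosome libraries were thus above all 6 cell libraries in CPM for either arm. The share of all names whose exosome and cell libraries did not overlap was not counted. For every member, non-overlap of exosome and cell libraries is therefore a description only.

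miR-1236-3p, miR-877-3p and miR-1224-5p were also higher in exosomes on both scales. miR-1236-3p stood at 144, 112 and 134 CPM in cells Con and 387, 388 and 369 in exosomes Con (log2 3.06, SE 0.116), and at 163, 147.5 and 136.5 in cells Ang against 195, 194 and 241 in exosomes Ang (log2 2.38, SE 0.148). miR-877-3p had log2 2.32 (SE 0.106) in Con and 2.95 (SE 0.116) in Ang, which are 1.75 and 2.08 as ratios of mean CPM. miR-1224-5p ran from 49.5 to 81.3 CPM in cells Con and from 108 to 119 in exosomes Con (log2 2.31, SE 0.163), with log2 2.95 (SE 0.213) under Ang.

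For 3 other members the direction or the call depended on the scale. miR-877-5p was higher in exosomes with TMM scaling, with log2 1.18 (SE 0.191) in Con and 1.18 (SE 0.250) in Ang. Its CPM was nonetheless lower, 39.7 to 49.5 in cells Con against 32.6 to 37.1 in exosomes Con, and with library totals the log2 differences were -0.32 (adjusted p = 0.181, edgeR) and -0.70 (adjusted p = 0.0155). miR-1229-3p was 6.16-fold higher in Con (log2 2.62, SE 0.148) and 2.94-fold higher in Ang (log2 1.56, SE 0.176). In Ang its CPM libraries overlapped, 89.5 to 129 in cells and 77.5 to 98.8 in exosomes, and with library totals its log2 difference was -0.33 (adjusted p = 0.0769, edgeR). miR-1234-3p was higher with TMM in Con (log2 1.60, SE 0.114) and in Ang (log2 2.38, SE 0.141), but with library totals it was 0.08 in Con and no longer passed (adjusted p = 0.505, edgeR).

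miR-1225-5p went the other way. It stood at 425, 546 and 351 CPM in cells Con and 27.2, 24.8 and 26.8 in exosomes Con, and at 463, 409 and 450 in cells Ang against 21.5, 18.8 and 25.4 in exosomes Ang. No cell library overlapped an exosome library. It was 5.87-fold lower in exosomes Con (log2 -2.55, SE 0.197, adjusted p = 4.66e-07, edgeR) and 5.39-fold lower in exosomes Ang (log2 -2.43, SE 0.174). With library totals the log2 difference was larger, -4.07 for the ratio of mean CPM in Con. miR-1226-3p, with log2 -0.65 in Con (SE 0.327), missed the threshold (adjusted p = 0.121, edgeR), and with library totals it was lower (log2 -2.14, adjusted p = 8.94e-05). In Ang it was too low to be tested.

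**Figure D2:**
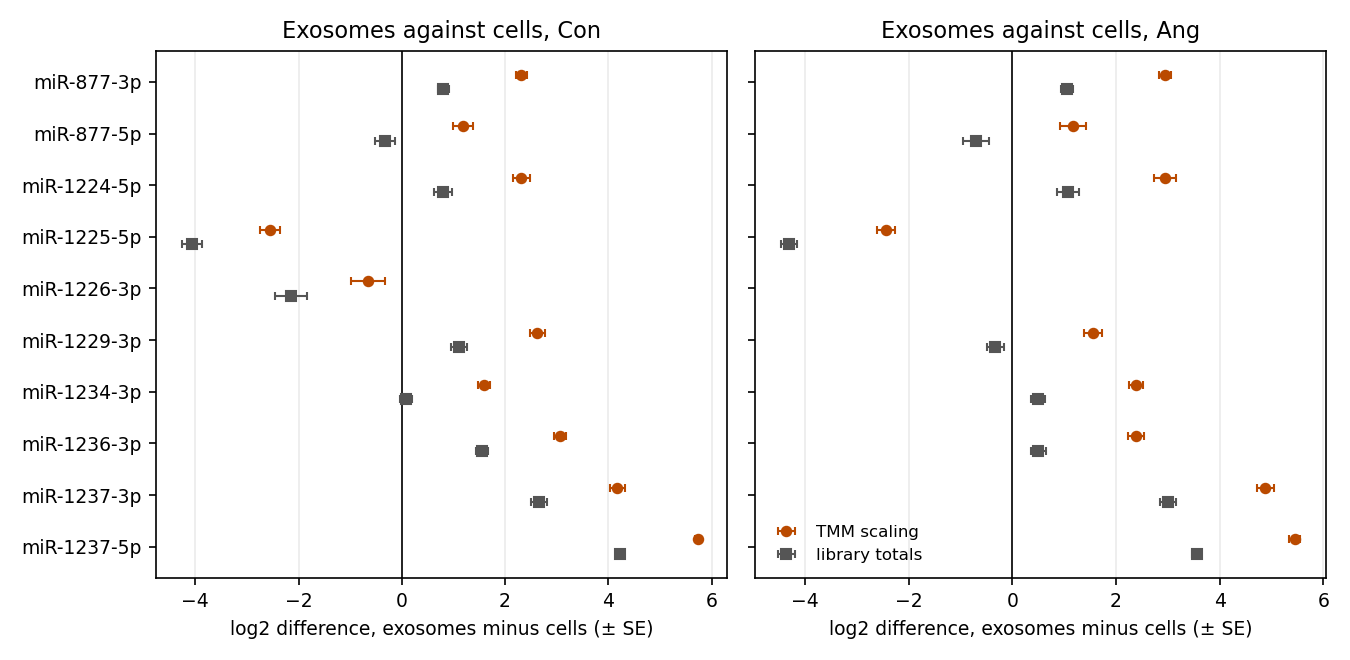
Log2 difference of exosomes minus cells for each member, in Con (left) and Ang (right), with bars of 1 SE from the edgeR fit; circles use TMM scaling and squares use library totals. miR-1237-5p is farthest right and miR-1225-5p farthest left on either scale, while miR-877-5p changes side between scales in both panels and miR-1229-3p in Ang.

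Base composition moved with this comparison over all names. Of tested names with a sequence, those with under 50% G and C had a median log2 difference of -2.13 in Con, and 15.9% of 516 were higher in exosomes. Names from 50% to under 65% had a median of -0.18 (653 names), those from 65% to under 80% a median of 1.68 (293 names), and those of 80% and more a median of 1.97, with 91.9% of 74 higher. The matched members ran from 59.1 to 90.5% G and C. miR-1225-5p, at 77.3%, was lower in exosomes while 74.7% of names in its range were higher. The part of base composition in the members' differences was not tested.

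The arms of one hairpin are annotated to the same intron, and their ratio within a library needs no scaling. The aligner and the counter were not given, so the origin of the counts of each arm in that intron was not tested. In miR-877 the 3p arm was in excess everywhere, 8.57, 8.90 and 6.14 times the 5p count in cells Con and 7.23, 10.8 and 6.04 times in cells Ang. The excess was larger in exosomes, 15.8, 19.1 and 16.7 times in Con and 22.1, 31.7 and 24.0 times in Ang. No exosome library overlapped a cell library. The log2 ratio of 5p to 3p was lower in exosomes by a mean difference of -1.44 (-1.15 in Con and -1.72 in Ang), with an exact two-sided permutation p of 0.005 within labels, the smallest that 400 rearrangements allow, and an adjusted p of 0.01 over the 4 arm tests, in 6 of 6 exosome libraries.

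In miR-1237 the 5p arm was in excess, and again more so in exosomes. The ratio of 5p to 3p counts was 19.7, 25.4 and 23.2 in cells Con, 33.5, 28.4 and 19.5 in cells Ang, 65.7, 73.1 and 60.7 in exosomes Con, and 37.6, 38.8 and 38.5 in exosomes Ang. All 6 exosome libraries lay above all 6 cell libraries. The log2 ratio was higher in exosomes by 1.07 on average, 1.58 in Con and 0.57 in Ang (exact permutation p = 0.005, adjusted p = 0.01). Ang against Con was also compared within compartments. For miR-877 the log2 ratio differed by 0.00128 in cells and -0.57 in exosomes, mean -0.29, exact permutation p = 0.165, adjusted p = 0.2. For miR-1237 it differed by 0.23 in cells and -0.79 in exosomes, mean -0.28, exact permutation p = 0.2, adjusted p = 0.2. In exosomes alone the Con and Ang libraries of either hairpin did not overlap, but 3 against 3 cannot go below an exact p of 0.1.

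**Figure D3:**
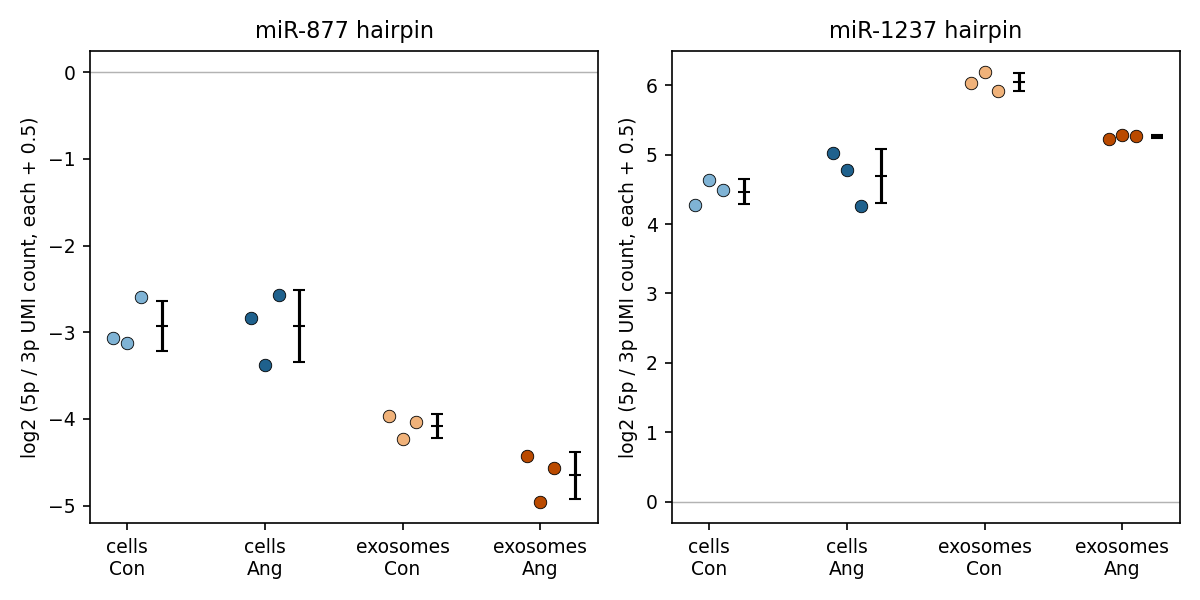
Log2 ratio of the 5p to the 3p UMI count, each plus 0.5, in the miR-877 and miR-1237 hairpins; points are libraries and the bar beside each group is the mean ± SD of 3. The miR-877 ratio lies between -3.38 and -2.57 in cells and between -4.96 and -3.96 in exosomes, and the miR-1237 ratio lies between 4.26 and 5.03 in cells and between 5.23 and 6.19 in exosomes.

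The other hairpins were read the same way, as descriptions. The 5p arm of miR-1225 made up 95.6% ± 0.95 (SD, n = 3) of the hairpin's UMIs in cells Con and 93.9% ± 2.0 in cells Ang, but 61.6% ± 7.8 in exosomes Con and 52.0% ± 5.1 in their Ang group, where each arm had 48 to 76 counts per group. By group mean miR-1224 was mostly 5p, at 72.9% ± 10.9 in cells Con and 84.2% ± 2.2 in exosomes Con. Under Ang its 5p share was 59.7% ± 8.4 in cells, with 50% in the lowest library, and 85.9% ± 3.5 in exosomes. miR-1236 was mostly 3p, with a 5p share of 14.8% ± 5.4 in cells Con, 2.39% ± 0.78 in exosomes Con and 4.25% ± 1.3 under Ang. For miR-1229 the 5p share was 21.4% ± 1.6 in exosomes Con and 41.1% ± 6.4 under Ang. In cells it was 26.6% ± 1.7 in Con and 18.3% ± 4.3 in Ang, the opposite direction, and Con and Ang libraries did not overlap in either compartment. miR-1226 had only 11 to 39 counts per arm and group, and its shares overlapped between cells Ang and exosomes.

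The effect of the Ang label on exosomes is the contrast the study asked about. Of 9 tested members, 3 were higher in Ang (miR-877-3p, miR-1234-3p and miR-1237-3p), 2 were lower (miR-1229-3p and miR-1236-3p) and 4 did not pass. Over all 1199 tested names 34.0% passed, 17.0% were higher and 17.0% lower. The median log2 change was -0.09 over the members and -0.05 over all tested names. With library totals the median of all names moved by -0.17, the split over all names was 151 higher and 319 lower in place of 204 and 204, and the members split 3 and 3, with miR-1237-5p added to those lower. RLE size factors, DESeq2 and limma-voom gave the members 3 and 2 as with TMM, while over all names DESeq2 gave 177 higher and 116 lower and a fit of all 12 libraries 248 and 161.

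miR-1229-3p and miR-1236-3p had the deepest falls of the set. miR-1229-3p stood at 174, 186 and 169 CPM in exosomes Con and 77.5, 80.4 and 98.8 in exosomes Ang, 1.83-fold lower (log2 -0.87, SE 0.129, adjusted p = 0.000538, edgeR). miR-1236-3p stood at 387, 388 and 369 CPM in Con and 195, 194 and 241 in Ang, 1.62-fold lower (log2 -0.69, SE 0.111, adjusted p = 0.000881, edgeR). Neither overlapped between Con and Ang, and each call held when any of the 6 libraries was left out, with log2 changes of -0.98 to -0.77 and -0.80 to -0.59.

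The 3 members that rose did so by less than 2-fold. miR-1234-3p went from 159, 173 and 188 CPM in Con to 222, 245 and 266 in Ang (1.58-fold, log2 0.66, SE 0.104, adjusted p = 0.000768, edgeR). miR-1237-3p went from 259, 225 and 267 to 344, 347 and 359 (1.57-fold, log2 0.65, SE 0.097, adjusted p = 0.000546). miR-877-3p was 1.35-fold higher (log2 0.43, SE 0.085, adjusted p = 0.00303). The Con and Ang libraries of these 3 members did not overlap, and each call held without any of the 6 libraries. How often Con and Ang libraries did not overlap over all names was not counted. Non-overlap, here and for the other members, is therefore a description only.

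The partner arms of miR-877-3p and miR-1237-3p did not pass the test. miR-877-5p had 29 to 36 counts per library in exosomes Con and 20 to 32 in exosomes Ang (log2 -0.14, SE 0.190, adjusted p = 0.661, edgeR), and in CPM these libraries did not overlap. miR-1237-5p, at 14612 to 17542 counts in Con and 9027 to 14128 in Ang, had log2 -0.14 (SE 0.060, adjusted p = 0.1003, edgeR). Its CPM did not overlap between Con and Ang, and it passed as lower with library totals (log2 -0.30, adjusted p = 0.000229), without a filter on low counts (log2 -0.20, adjusted p = 0.00193) and without exosomes Con replicate 3 (log2 -0.18, adjusted p = 0.042). miR-1224-5p (log2 -0.04, SE 0.143) and miR-1225-5p (log2 -0.09, SE 0.201) overlapped between Con and Ang in CPM and did not pass. miR-1226-3p was too low to be tested.

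In the cells only miR-1237-5p passed, 1.28-fold higher in Ang (log2 0.35, SE 0.086, adjusted p = 0.0211, edgeR), where 6.56% of 1630 tested names passed, 2.76% higher and 3.80% lower. The cells Con libraries, at 875 to 894 CPM, did not overlap the cells Ang libraries, at 1026 to 1229.3 CPM. The call did not hold without any one of cells Con replicates 1, 2 and 3 and cells Ang replicates 1 and 2 (adjusted p = 0.0633 to 0.133), nor without a filter on low counts (adjusted p = 0.0517), while the log2 change stayed between 0.30 and 0.42. The other 9 members had log2 changes from -0.49 (miR-1224-5p, SE 0.258, adjusted p = 0.324) to 0.40 (miR-1229-3p, SE 0.187, adjusted p = 0.262). The median was 0.06 over the members and 0.02 over all tested names.

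**Figure D4:**
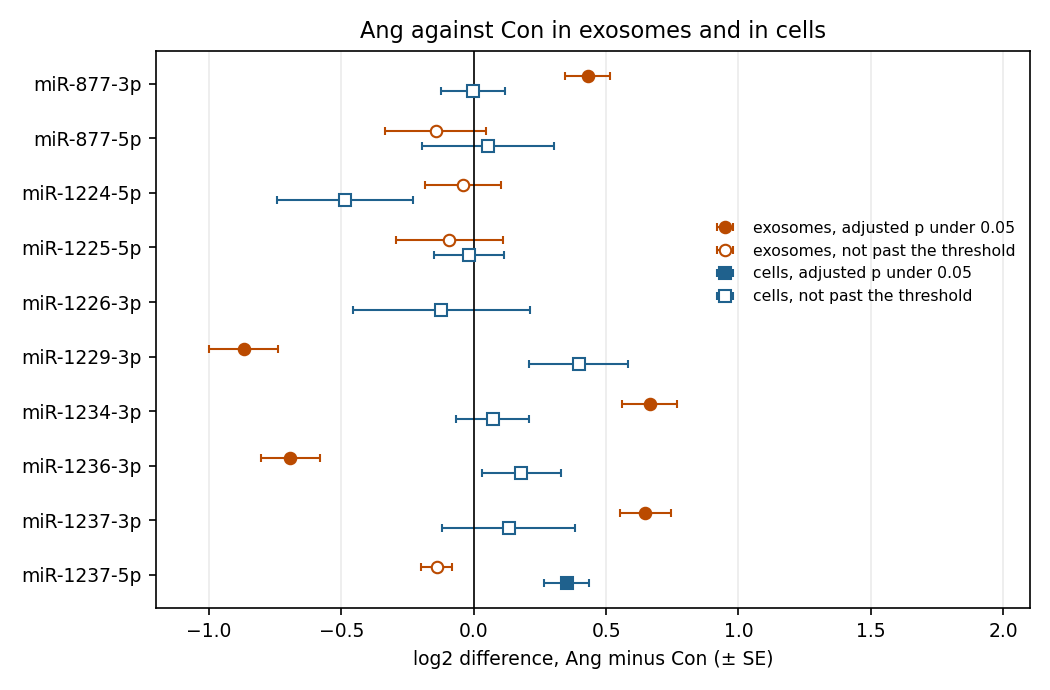
Log2 difference of Ang minus Con for each member in exosomes (circles) and in cells (squares), with bars of 1 SE from the edgeR fit with TMM scaling; filled symbols have an adjusted p under 0.05. In exosomes 3 filled symbols lie to the right of 0, at 0.43 to 0.66, and 2 to the left, at -0.87 and -0.69. The open symbols of exosomes lie between -0.14 and -0.04, and in cells only miR-1237-5p is filled, at 0.35.

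Whether the Ang change differed between exosomes and cells was tested as an interaction over all 12 libraries. It passed for 5 of the 10 members, where 15.1% of 1835 tested names passed (9.97% higher and 5.18% lower). miR-1229-3p had a difference of -1.12 on the log2 scale (SE 0.239, adjusted p = 0.00318, edgeR), from 80.5 ± 17.9 to 107 ± 19.8 CPM in cells and from 176 ± 8.66 to 85.6 ± 11.5 in exosomes (SD, n = 3). miR-1236-3p had -0.73 (SE 0.194, adjusted p = 0.0147), and miR-1234-3p 0.73 (SE 0.176, adjusted p = 0.00732). miR-877-3p had 0.57 (SE 0.169, adjusted p = 0.0292) and miR-1237-5p -0.35 (SE 0.111, adjusted p = 0.0405). The calls of miR-1229-3p and miR-1234-3p held without any of the 12 libraries. With library totals 3 members passed, all lower, in place of 2 higher and 3 lower, and over all names 93 were higher and 221 lower in place of 183 and 95. On that scale miR-1234-3p (0.41, adjusted p = 0.136) and miR-877-3p (0.25, adjusted p = 0.341) lost their calls, and miR-877-3p also with totals without miR-552-3p and miR-3972 (0.48, adjusted p = 0.0596). RLE size factors gave 250 and 77 over all names, and 3 members higher and 2 lower. The call of miR-1237-5p was lost with RLE size factors (-0.24, adjusted p = 0.196), DESeq2 (adjusted p = 0.160) and no filter on low counts (adjusted p = 0.0891). It was also lost without any of cells Con replicates 1, 2 and 3 and cells Ang replicates 1 and 2 (adjusted p up to 0.116). That of miR-1236-3p was lost without cells Con replicate 2 or cells Ang replicate 1 (adjusted p up to 0.0669), and that of miR-877-3p without any of 8 of the 12 libraries (adjusted p up to 0.0872). miR-1237-3p, with 0.66 (SE 0.229), missed the threshold (adjusted p = 0.0899), but passed with RLE size factors (adjusted p = 0.0358) and DESeq2 (adjusted p = 0.0467).

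Further names of the same number range, 14 in all, include the opposite arms of these hairpins and the other introns of that series. The 13 hairpins of the set and of these names, 2 of them the copies of miR-1233, all coincided with whole introns. Of 11 tested, 9 were higher and 2 lower in exosomes Con than in cells Con, and 8 and 2 in Ang, with TMM scaling; over all names 39.2% were higher and 44.2% lower in Con, and 38.2% and 45.1% in Ang. By ratio of mean CPM, 3 of the 9 were lower in exosomes Con, miR-1224-3p (0.873), miR-1225-3p (0.833) and miR-1231 (0.629). In Ang these and miR-1227-5p had ratios of 0.526, 0.699, 0.780 and 0.665. The lower pair was miR-1227-3p, from an intron of PLEKHJ1, at 5707 ± 417 CPM in cells Con and 183 ± 4.66 in exosomes Con (SD, n = 3; log2 -3.45, SE 0.081), and miR-1228-5p, from the lipoprotein receptor gene LRP1 (592 ± 70.4 and 99.5 ± 11.4 CPM). With TMM scaling the opposite arm miR-1228-3p was 14.5-fold higher in exosomes Con, or 5.08-fold as a ratio of mean CPM (27.3 ± 4.24 and 139 ± 18.4 CPM). The other folds and log2 values of these names also use TMM scaling. In exosomes 2 of the 11 rose under Ang, miR-1238-5p, from the autophagy gene ATG4D (1.84-fold, 982 ± 20.3 to 1608 ± 80.1 CPM) and miR-1227-3p (1.54-fold), and miR-1233-3p fell from 163 ± 1.51 to 96.8 ± 4.11 CPM, where 17.0% of all names were higher and 17.0% lower. In cells, where 6.56% of all names passed, miR-1238-5p rose 1.41-fold and miR-1231, from an intron of NAV1, fell 1.41-fold, from 19101 ± 474 to 13678 ± 627 CPM. miR-1233-3p comes from near-identical copies in GOLGA8A and GOLGA8B, which these counts cannot separate.

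Other miRNAs made without Drosha but not by splicing, the miR-320 family and miR-484, were compared as a list of 7 names. In Con none was higher in exosomes and 4 were lower (miR-320a-3p, miR-320b, miR-320c and miR-320d). Over all names 39.2% were higher and 44.2% lower. With TMM scaling the median log2 difference of the list was -0.74, against 2.32 for the mirtrons. The part of base composition in the difference between the lists was not tested. In Ang 1 was higher, 1 lower and 5 did not pass, where 38.2% of all names were higher and 45.1% lower. The median in Ang was 0.40, against -0.31 over all names, so the lower median of Con was not seen there. Ang against Con in exosomes gave log2 changes from -0.05 to 0.28, with unadjusted p from 0.240 to 0.955 (edgeR). None of the 7 passed, where 34.0% of all names did. In cells miR-320c (log2 -0.81) and miR-320d (log2 -1.05) fell, where 3.80% of all names were lower.

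The names whose pattern over the 12 libraries was most like that of the leading members were taken by Pearson's r of log2(CPM + 1) on the TMM scale, among 1819 names with a mean of at least 10 CPM. For miR-1237-5p these were miR-6762-3p, miR-10401-3p and miR-1289 (r = 0.9995, 0.9993 and 0.9993). For miR-877-3p they were miR-7110-5p, miR-4654 and miR-1249-3p (r = 0.9978, 0.9972 and 0.9969). The libraries form a cell and an exosome cluster, which by itself raises r. Within the 6 cell libraries r was 0.96, 0.75 and 0.69 for the first 3 names, and within the 6 exosome libraries 0.65, 0.43 and 0.29. For miR-877-3p the same 3 names had 0.96, 0.86 and 0.76 in cells and 0.96, 0.93 and 0.93 in exosomes.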

How the data were processed

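The deposited values are raw counts of UMIs for each mature miRNA, as the authors' column names say, from small RNA of AC16 cells (miRNeasy Micro kit) and of their exosomes (exoRNeasy Maxi kit) in QIAseq miRNA libraries, per the labels' protocols. The submitters' processing notes name cutadapt and GRCh38. The aligner, the annotation and the counter were not given in the sources used here, so reads shared by near-identical names could have been split. The 76 names listed only for cells, none above 20 counts, were taken as 0 in exosomes. Each pair of groups (3 libraries each) was fitted with edgeR 4.0.16 in R 4.3.3 (filterByExpr, TMM, quasi-likelihood test, two-sided, Benjamini-Hochberg over all tested names, threshold 0.05), after a check on simulated counts; the interaction used 12 libraries. Arm ratios used a pseudocount of 0.5 and exact permutation tests. Every member is named, with up to 4 names of each comparison list by lowest p and the 3 names most like each of the 2 leading members. Names that complete a count of 5 or fewer, such as miR-1228-5p, were chosen after their values were seen. Alternatives were RLE factors, library totals with and without miR-552-3p and miR-3972, DESeq2 1.42.0, limma-voom (limma 3.58.1), other filters, a replicate block, all 12 libraries and each library left out. The members and lists were chosen with earlier results of these data known.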

Additional observations from a re-analysis of the deposited data

Results flagged for a closer look

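For 5 members the Ang change in exosomes differed from that in cells by the interaction test over 12 libraries (edgeR, Benjamini-Hochberg over all names), where 15.1% of 1835 tested names passed. With TMM scaling 2 were higher and 3 lower, and with library totals 0 were higher and 3 lower. miR-1229-3p differed by -1.12 on the log2 scale and miR-1236-3p by -0.73, both lower in exosomes Ang than in exosomes Con with no such fall in the cells. miR-1234-3p differed by 0.73 and miR-877-3p by 0.57, both higher in exosomes Ang, and both calls were lost with library totals (0.41, adjusted p = 0.136, and 0.25, adjusted p = 0.341). miR-1237-5p differed by -0.35, a call lost with RLE size factors (adjusted p = 0.196) and DESeq2 (adjusted p = 0.160). The calls of miR-877-3p (adjusted p up to 0.0872), miR-1236-3p (up to 0.0669) and miR-1237-5p (up to 0.116) were lost without some single libraries. Those were cells Con replicate 2 or cells Ang replicate 1 for miR-1236-3p, any cells library but Ang replicate 3 for miR-1237-5p, and for miR-877-3p any library but replicate 3 of either Con group and replicate 1 of either Ang group.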

How the results depend on the processing

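Of the results on members, limma-voom and a minimum mean of 10 CPM left all 48 on the same side, and the cause of the changes below was not tested. The number of members called for Ang against Con in cells was 0 without a filter on low counts, and for the interaction 3 with library totals. Leaving out single libraries gave 0 to 1 and 2 to 5 calls, the lowest without cells Con replicate 2 for the interaction, which fell to 3 without cells Con replicate 1 or cells Ang replicate 1 or 2. Exosomes against cells kept 9 and 9, Ang against Con in exosomes gave 5 to 6, and over all names cells gave 38 to 97 in place of 107. With library totals, reversed log2 values were -0.32 (Con) and -0.70 (Ang) for miR-877-5p and -0.33 for miR-1229-3p in Ang, exosomes against cells, 0.0096 for miR-877-3p in cells and -0.25 for miR-1225-5p in the interaction. Totals without miR-552-3p and miR-3972 gave -0.066 and -0.22 for miR-877-5p, 0.021 for miR-1224-5p in exosomes, 0.010 for miR-877-3p in cells and -0.027 for miR-1225-5p in the interaction. RLE factors and DESeq2 gave 0.0036 and 0.0016 for miR-1224-5p in exosomes, and in the interaction 0.051 and 0.055 for miR-877-5p and 0.015 and 0.016 for miR-1226-3p. The fit of all 12 libraries gave 0.049 for miR-1224-5p in exosomes and -0.0036 for miR-877-5p in cells.

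Same-numbered libraries had correlations of -0.048 to 0.11, so the numbers were not shown to pair them. The replicate block left the members called at 9, 9, 5, 1 and 5, moved all names in cells from 107 to 132, and gave 0.0016 for miR-1225-5p in cells. It was not run for the arm ratios.

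Leaving out single libraries also turned the direction of members that had not passed. In exosomes the ranges were -0.25 to 0.030 for miR-877-5p, -0.18 to 0.051 for miR-1224-5p and -0.22 to 0.067 for miR-1225-5p. In cells they were -0.10 to 0.089 for miR-877-3p, -0.084 to 0.22 for miR-877-5p, -0.17 to 0.16 for miR-1225-5p, -0.43 to 0.098 for miR-1226-3p, -0.043 to 0.16 for miR-1234-3p and -0.043 to 0.26 for miR-1237-3p. In the interaction they were -0.23 to 0.12 for miR-877-5p, -0.10 to 0.21 for miR-1225-5p and -0.90 to 0.20 for miR-1226-3p. The lowest counts, 1 to 17 per library for miR-1226-3p, limit what can be detected.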
